A study of Mus musculus with 6 samples.

Results

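The chromatin remodelers and histone modifiers on the array were examined in cells differentiating toward paraxial mesoderm from embryonic stem (ES) cells of the mouse. The genes were chosen by symbol: every probe set whose annotated gene begins with Kdm, Kmt2, Hdac, Smarc, Chd or Cbx, and those of Ezh1, Ezh2, Suz12, Eed, Jarid2, Ring1 and Rnf2. This gave 186 of the 45101 probe sets, which represent 72 of 18193 genes. Another 5 probe sets carry a matching symbol together with a second gene and were left out. The letters of the rule also take in Chdh, which encodes choline dehydrogenase, an enzyme of choline metabolism and no chromatin factor.

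All arrays come from E14 ES cells of the 129P2/OlaHsd background that carry Msgn1RepV, a Venus reporter of the presomitic gene Msgn1. The day 4 group holds 3 biological replicates differentiated for 4 days and the day 3 group holds 3 differentiated for 3 days. Both groups grew as monolayers in a serum-containing medium to which DMSO (0.5%), R-spondin3 (10 ng/mL), which boosts Wnt signals, and Noggin (200 ng/mL), which blocks BMP signals, had been added. Both were sorted for Venus. The reporter gate sets the population, a single parental ES line was used, and undifferentiated or Venus-negative cells were not analysed here.

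Histone tails carry methyl and acetyl groups that are written, removed and read by large protein complexes. Polycomb complexes keep developmental genes silent: PRC2 methylates H3K27 through Ezh1 or Ezh2, and PRC1 ubiquitinates histone H2A through Ring1 or Rnf2. Kmt2 enzymes methylate H3K4 at active promoters and enhancers, Kdm enzymes remove methyl groups, and Hdac enzymes remove acetyl groups. The Smarc and Chd proteins are ATPases, or subunits bound to them, that slide or evict nucleosomes. In ES cells this machinery is abundant, and exchange of subunits in the BAF complex (the mammalian SWI/SNF remodeler) accompanies the choice of lineage.

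The chromatin genes as a set changed about as often as other genes, and by small amounts. Of the 72 genes, 66 were bright enough to be tested, the filter being the mean over all 6 arrays. At day 4, 10 of these 66 were higher and 3 lower than at day 3 (limma, adjusted p under 0.05), which is 19.7% of the members tested against 22.2% of all 12285 genes tested. By direction the share was 15.2% higher against 11.5% of all genes, and 4.55% lower against 10.7%. A change of at least 2-fold was reached by 1 gene, Smarcd3, or 1.52% of the members against 4.04% of all genes. The median log2 change was 0.05 in the members and -0.01 over all genes, and the median size of the change regardless of sign was 0.21 and 0.26. Replicates of the members also varied less, with a median SD of log2 signal of 0.14 at day 4 and 0.11 at day 3. Over all genes tested it was 0.18 and 0.14. The part of this in the sizes of the changes was not tested. The values of the days did not overlap for 28 members (42.4%, against 41.4% of all genes). Out of all 66 members tested, the day 4 arrays were on top for 19 and below for 9. Out of all genes tested, they were on top for 20.7% and below for 20.6%.

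**Figure D1:**
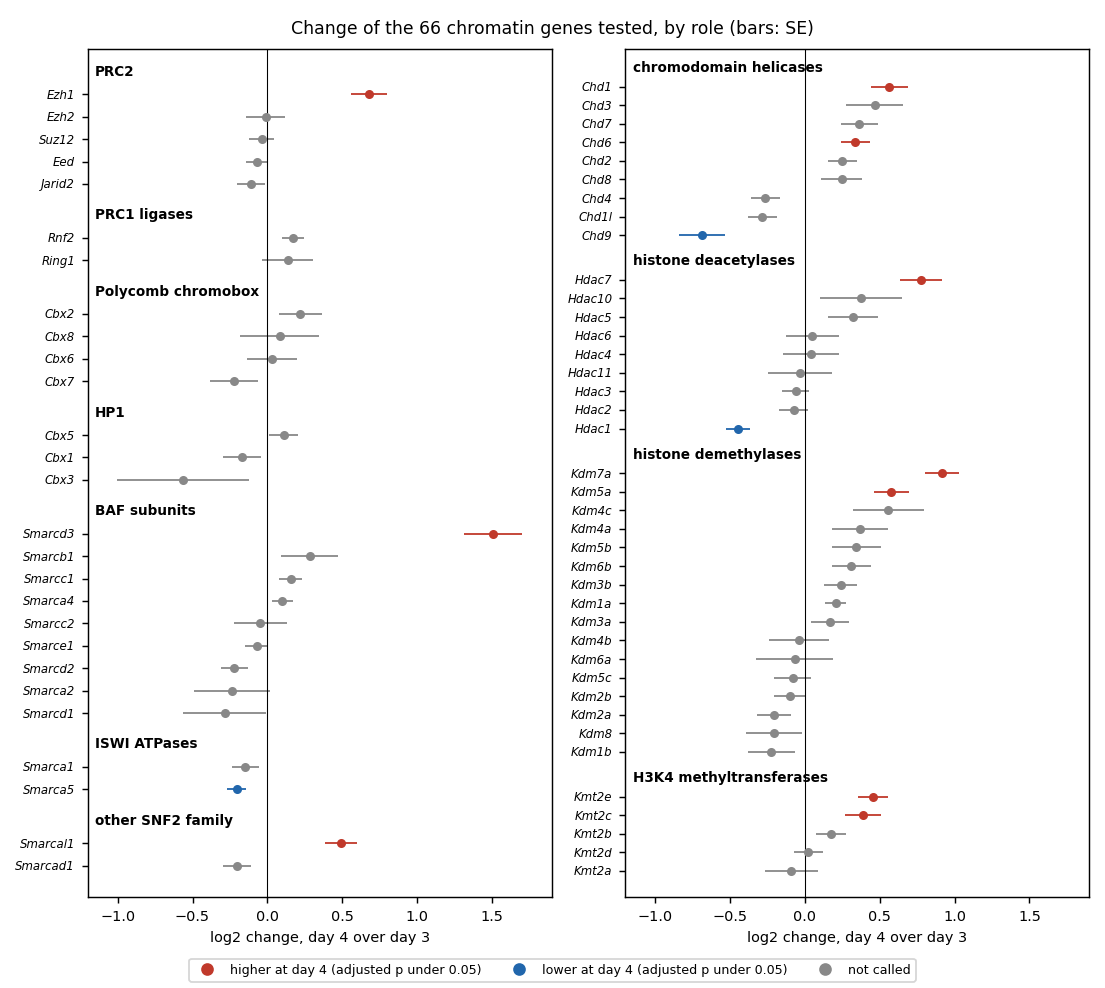
Log2 change in signal, day 4 over day 3, of the 66 chromatin genes tested, grouped by role (points: fitted change; bars: SE; n = 3 arrays per day; colour: limma call). Smarcd3 stands at 1.51, no other gene reaches 1 in either direction, and 53 genes are not called.

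**Figure D2:**
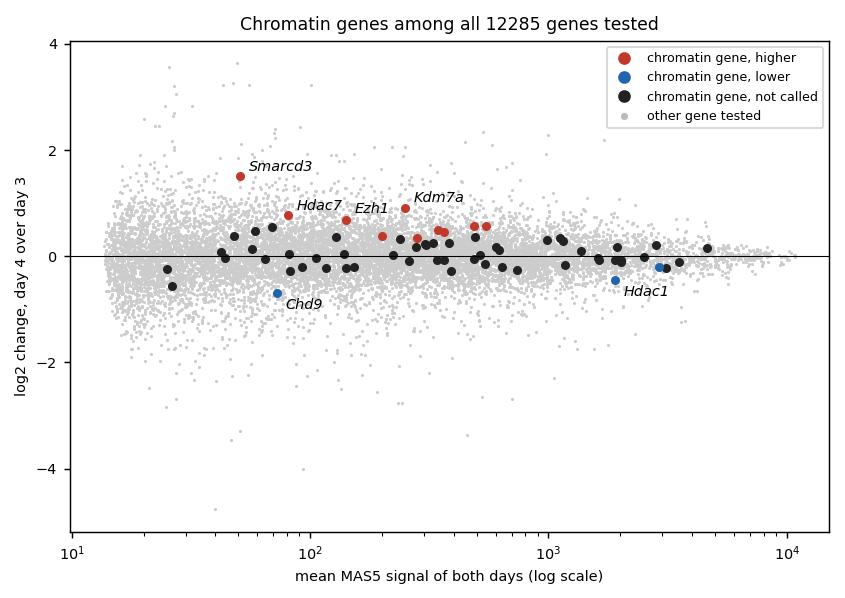
Fitted log2 change, day 4 over day 3, against the mean signal of both days (log scale) for all 12285 genes tested (grey) and the 66 chromatin genes (coloured by call). The chromatin genes lie near 0 relative to the range of all genes, -4.77 to 3.64.

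Levels below are MAS5 signals, a linear measure of brightness that serves to compare 1 probe set between arrays and not 1 gene with another. Where a gene has several probe sets, the one with the highest mean over all arrays was used. Errors of means are SDs and errors of log2 changes are SEs, with 3 arrays per day. All 6 presomitic mesoderm markers passed the filter, with a summed signal of 4505 to 4812 at day 4 and 2902 to 3132 at day 3. Of these, 1 was higher at day 4, 1 lower and 4 not called. Rspo3, the largest part of both sums, was higher, at 2695 ± 257 at day 4 and 1275 ± 39.3 at day 3 (limma adjusted p = 5.1e-05). Msgn1, the reporter's own gene, was lower, at 33.2 ± 7.06 at day 4 and 74.6 ± 15.0 at day 3 (limma adjusted p = 0.00723). Markers of the anterior presomitic mesoderm and somite were higher in 5 of 5 cases tested, each at least 2-fold, with a summed signal of 1129 to 1446 at day 4 and 315 to 341 at day 3. Markers of pluripotent cells were lower at day 4 in 4 of 6 cases and 0 were higher, with a summed signal of 690 to 816 at day 4 and 2075 to 2366 at day 3. Of 7 proliferation genes, 1 was higher and 0 lower, and the summed signal was 20828 to 21133 at day 4 and 20003 to 21366 at day 3. The summed signal of 5 cardiac and lateral plate markers was 764 to 881 at day 4 and 377 to 394 at day 3. Of these, 3 were higher (Isl1, Hand2 and Gata4), 0 lower, and Nkx2-5 and Hand1 were not called. Isl1 made the largest part of both sums, at 517 ± 7.52 at day 4 and 232 ± 20.1 at day 3. Endoderm markers were lower in 3 of 5 cases and 0 were higher (summed signal 372 to 413 at day 4 and 598 to 647 at day 3), and neural markers in 1 of 2 tested (71.7 to 109 at day 4 and 146 to 164 at day 3). In such bulk samples a smaller share of a cell type and less RNA per cell cannot be told apart, and the part of these markers in the changes below was not tested.

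Day 4 replicate 1 stood apart in RNA quality: its ratio of 3′ to 5′ Gapdh control signal was 14.0, against 2.43 to 3.19 on the other 5 arrays. It was also the day 4 array farthest from the day 4 median for 44 of the 66 members (66.7%, against 53.9% of all genes tested). Without it, calls over all genes rose from 2729 to 3530 of 12285. In that fit 12 of the 66 members were higher and 4 lower, and 12 of the 13 members called on all arrays were called again. The exception was Kmt2c, and the calls gained were Kdm1a, Kdm6b, Smarcb1 and Chd1l.

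Among BAF subunits, Smarcd3 was the only gene of 9 tested that was called. It encodes BAF60c, a subunit that in the mouse embryo is needed for heart and muscle development. Its signal was 77.8, 69.8 and 76.9 on the day 4 arrays and 29.1, 21.9 and 28.5 on the day 3 arrays, so the lowest day 4 array was above every day 3 array. The means were 74.8 ± 4.37 at day 4 and 26.5 ± 3.99 at day 3, a 2.84-fold rise (log2 change 1.51 ± 0.19, limma adjusted p = 0.000765). Leaving out each array in turn gave changes of 1.38 to 1.58, and the adjusted p reached 0.00463 at most. The gene has 1 probe set, so no second one was there to compare.

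The other members of the Smarcd family, which fill the same position in the complex, were not called. Smarcd1, the form prominent in ES cells, had 43.9, 94.9 and 90.3 at day 4 and 84.4, 78.9 and 102 at day 3. The lowest of these values was on the array with the high Gapdh ratio, and the log2 change was -0.29 ± 0.28 with all arrays and 0.07 without that array. Smarcd2 had 2513, 3156 and 2990.0 at day 4 and 3211, 3268 and 3590 at day 3. These groups did not overlap, but the change of -0.22 ± 0.09 did not pass (limma adjusted p = 0.109).

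The catalytic and core BAF subunits showed no call either. Smarca4, the ATPase Brg1, was at 1422 ± 22.0 at day 4 and 1329 ± 58.9 at day 3 (log2 change 0.10 ± 0.07), and its alternative Smarca2 was dim, at 23.1 ± 1.95 and 27.3 ± 3.39. Smarcb1, a core subunit, was at 1269.5 ± 298 at day 4 and 1040.1 ± 236 at day 3, a spread that the change of 0.28 ± 0.19 did not exceed. Without day 4 replicate 1 the change of Smarcb1 was 0.47 and passed (limma adjusted p = 0.0424). Smarcc1, the scaffold subunit that ES cells use, was at 4872 ± 476 at day 4 and 4361 ± 199 at day 3 (log2 change 0.16 ± 0.08, limma adjusted p = 0.171). Smarce1 had a log2 change of -0.07 ± 0.08 on its brightest probe set, while a dimmer one was called higher (0.38 ± 0.10, limma adjusted p = 0.0309 over all probe sets tested). With the mean over all its probe sets, dim ones included, Smarce1 was called lower (-0.65, limma adjusted p = 0.0253).

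The sequence at the start of a few of these genes is shown because they carry the clearest contrasts: Smarcd3 and Kdm7a had the largest rises among the members tested, and Ezh1 and Ezh2 are alternative subunits of which 1 changed. Windows of 300 bases, from 250 before to 50 after the RefSeq gene start, are given 5′ to 3′ on the gene's strand in GRCm38.p6, with each CG dinucleotide in capitals. Smarcd3 lies on chr5:24601953-24602252, Kdm7a on chr6:39206724-39207023, Ezh1 on chr11:101226414-101226713 and Ezh2 on chr6:47594981-47595280, each on the minus strand.
Smarcd3: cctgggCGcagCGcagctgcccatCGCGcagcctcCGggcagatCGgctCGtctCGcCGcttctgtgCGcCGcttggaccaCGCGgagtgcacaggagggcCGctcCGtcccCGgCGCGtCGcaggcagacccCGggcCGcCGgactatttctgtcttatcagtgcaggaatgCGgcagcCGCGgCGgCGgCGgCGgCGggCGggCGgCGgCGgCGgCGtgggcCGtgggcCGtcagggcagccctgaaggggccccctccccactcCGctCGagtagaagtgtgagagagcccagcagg
Kdm7a: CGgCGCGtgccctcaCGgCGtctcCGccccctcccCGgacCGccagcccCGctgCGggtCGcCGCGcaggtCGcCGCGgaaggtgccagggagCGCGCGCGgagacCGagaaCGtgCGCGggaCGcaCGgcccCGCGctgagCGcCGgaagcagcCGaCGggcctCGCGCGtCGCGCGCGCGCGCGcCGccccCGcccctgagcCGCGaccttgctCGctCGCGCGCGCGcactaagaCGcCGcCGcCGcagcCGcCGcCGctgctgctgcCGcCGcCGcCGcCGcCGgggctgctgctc
Ezh1: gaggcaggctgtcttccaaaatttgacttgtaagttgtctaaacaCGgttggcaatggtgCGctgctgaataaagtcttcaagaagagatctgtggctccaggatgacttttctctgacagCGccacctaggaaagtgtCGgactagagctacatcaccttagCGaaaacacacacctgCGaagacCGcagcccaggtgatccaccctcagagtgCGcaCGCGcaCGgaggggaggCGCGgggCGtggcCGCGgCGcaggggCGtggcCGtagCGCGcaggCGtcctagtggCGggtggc
Ezh2: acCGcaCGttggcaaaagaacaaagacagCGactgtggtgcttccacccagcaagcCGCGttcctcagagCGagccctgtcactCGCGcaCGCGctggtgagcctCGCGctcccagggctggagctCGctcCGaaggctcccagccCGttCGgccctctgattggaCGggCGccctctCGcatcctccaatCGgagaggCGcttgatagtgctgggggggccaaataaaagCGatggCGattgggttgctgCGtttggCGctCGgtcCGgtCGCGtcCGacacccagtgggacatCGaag
The windows hold 40 CG in Smarcd3, 65 in Kdm7a, 23 in Ezh1 and 31 in Ezh2. At least 1 CG, which reads the same on both strands, occurs in 94.6% of the 32851 windows of all RefSeq genes, coding or not. Of those windows, 3.91% hold as many as Smarcd3 or more, 0.00913% as many as Kdm7a, 21.5% as many as Ezh1 and 10.6% as many as Ezh2. Of the 72 chromatin genes, 56 matched by symbol, with 75 windows and a median of 25 CG against 7 over all windows. The median was 27 for the 10 windows of genes higher at day 4, 19 for the 3 windows of genes lower at day 4 and 25.5 for the 62 windows of genes not called. A gene with alternative starts counts more than once here. The 10 windows belong to 7 genes, Hdac7 having several, and the 3 windows to 2 genes, Chd9 and Smarca5. Hdac1 had no window.

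In PRC2, Ezh1 was higher at day 4 and the other 4 members were not called. Ezh1 encodes the alternative H3K27 methyltransferase, which is known for weaker catalytic activity than Ezh2 and for use in slowly dividing cells. It had 162, 177 and 182 at day 4 and 104, 104 and 117 at day 3, with every day 4 array above every day 3 array. The means were 174 ± 10.6 and 109 ± 7.51, a 1.60-fold rise (log2 change 0.68 ± 0.12, limma adjusted p = 0.00401). Its only other tested probe set was dim and not called (log2 change 0.44 ± 0.32).

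Ezh2, the main H3K27 methyltransferase of ES cells, had 1979.6, 2667 and 2911 at day 4 and 2493, 2709 and 2336 at day 3. The day 4 arrays spanned the day 3 range, and the log2 change was -0.01 ± 0.13. Suz12 and Eed, the scaffold and the methyl-lysine reader that the enzyme needs, changed by -0.04 ± 0.09 and -0.07 ± 0.07. Jarid2, which helps to recruit PRC2 to chromatin, was at 1939 ± 146 at day 4 and 2100.1 ± 236 at day 3 (log2 change -0.11 ± 0.09). The limma adjusted p of these 4 genes was between 0.432 and 0.958.

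Of the PRC1 members, 2 ligases and 4 chromobox genes, limma called 0 after adjustment and 1, Rnf2, had an unadjusted p under 0.05. Rnf2, which encodes the main H2A ubiquitin ligase of ES cells, had 2107, 2059 and 2002 at day 4 and 1978, 1720.3 and 1794 at day 3. All day 4 arrays were above the day 3 arrays by a small margin, and the change of 0.17 ± 0.07 did not pass (limma adjusted p = 0.131). Ring1, its relative, changed by 0.13 ± 0.17. Cbx7, the chromobox subunit that predominates in ES cells, was at 131 ± 22.5 at day 4 and 152 ± 18.3 at day 3 (log2 change -0.22 ± 0.16), and Cbx2, a subunit more typical of differentiating cells, at 331 ± 66.3 and 281 ± 13.1 (0.22 ± 0.14). Cbx6 and Cbx8 changed by 0.03 ± 0.17 and 0.08 ± 0.26.

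The HP1 proteins, which bind methylated H3K9 in heterochromatin, had 0 of 3 genes called by limma, and 0 with an unadjusted p under 0.05. Cbx1 was at 1113 ± 197 at day 4 and 1239.6 ± 68.3 at day 3. Cbx5 gave opposite readings on its probe sets: the brightest had 573, 669 and 696 at day 4 and 608, 605 and 579 at day 3 (log2 change 0.11 ± 0.10). A dimmer Cbx5 probe set had 237, 262 and 275 at day 4 and 322, 347 and 354 at day 3, with no overlap, and was called lower (-0.40 ± 0.11, limma adjusted p = 0.0326 over all probe sets tested). Cbx3 is represented here by 1 dim probe set (22.7 ± 12.3 at day 4 and 29.7 ± 4.57 at day 3), since others are annotated to Cbx3 and a pseudogene together.

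Among histone deacetylases, Hdac1 was lower and Hdac7 higher at day 4, and the other 7 tested were not called. Hdac1 is a class I deacetylase and a catalytic subunit of the Sin3, NuRD and CoREST complexes. Its signal was 1474, 1757 and 1595 on the day 4 arrays and 2248, 2125 and 2183 on the day 3 arrays, so that the highest day 4 array was below every day 3 array. The means were 1609 ± 142 and 2185 ± 61.1 (log2 change -0.45 ± 0.08, limma adjusted p = 0.00400). All 16 alternative settings kept this call, with changes of -0.51 to -0.38 when an array was left out.

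Hdac2, the close relative that shares those complexes, had 1587, 2018 and 1965 at day 4 and 1940.4, 1970.5 and 1925 at day 3. Replicate 1 of day 4 was below every day 3 array, replicate 2 above them and replicate 3 among them (log2 change -0.08 ± 0.09). Hdac3, the deacetylase of the NCoR complex, was at 475 ± 10.7 at day 4 and 496 ± 28.4 at day 3. Hdac7, a class IIa deacetylase known from endothelial cells and thymocytes, had 103, 99.7 and 101 at day 4 and 53.1, 62.9 and 62.2 at day 3. This was a 1.71-fold rise with no overlap (log2 change 0.78 ± 0.14, limma adjusted p = 0.00455). A dimmer Hdac7 probe set was not called, with 12.0, 32.4 and 45.6 at day 4 and 19.9, 24.4 and 25.3 at day 3. The 5 endothelial and blood markers summed to 471 to 660 at day 4 and 251 to 290 at day 3, and of 3 tested, 1 was higher and 0 lower. Kdr, the one called, was at 496 ± 92.7 at day 4 and 216 ± 19.6 at day 3. Cdh5 lay the other way without a call, at 11.8 ± 4.30 and 19.3 ± 0.88 (log2 change -0.78 ± 0.40, limma adjusted p = 0.192), Gata1 changed by 0.26 ± 0.38, and Pecam1 and Tal1 were under the filter. The part of these cells in the Hdac7 signal was not tested.

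Of 16 histone demethylases tested, Kdm7a and Kdm5a were higher at day 4 and 0 were lower. Kdm7a removes methyl groups from H3K9 and H3K27, marks of silent chromatin. It had 343, 318 and 315 at day 4 and 157, 172 and 188 at day 3, a 1.89-fold rise (log2 change 0.92 ± 0.11, limma adjusted p = 0.000584). A second tested probe set was higher by 0.93 ± 0.14, with 221, 219 and 264 at day 4 and 119, 139.7 and 112 at day 3. Both showed every day 4 array above every day 3 array. The other 3 Kdm7a probe sets lay under the filter, at 0.490 to 19.5 at day 4 and 0.425 to 17.1 at day 3.

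Kdm5a, which removes methyl groups from H3K4, had 594, 672 and 696 at day 4 and 457, 484.5 and 378 at day 3 (1.49-fold, log2 change 0.58 ± 0.12, limma adjusted p = 0.00747). Its 4 other tested probe sets were also higher on average, by 0.16 to 0.58, and did not pass. Kdm5b, another H3K4 demethylase abundant in ES cells, had 1687, 1099 and 1015 at day 4 and 1010.5, 968 and 940.1 at day 3. The high value came from day 4 replicate 1, and the change of 0.34 ± 0.16 did not pass (limma adjusted p = 0.165). The 4 tested probe sets of Kdm5b ran from -0.04 to 0.80, none of them called. With the mean over its probe sets Kdm5b passed as higher (limma adjusted p = 0.0310). Of the 8 tested probe sets of Kdm5c, the X-linked member, 1 was called higher (0.63 ± 0.11, limma adjusted p = 0.00624 over all probe sets tested) while the brightest changed by -0.08 ± 0.13.

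Kdm6b and Kdm6a, which remove methyl groups from H3K27, and the demethylases Kdm1a and Kdm2b were not called on all arrays. Kdm6b had 874, 1278 and 1145 at day 4 and 829, 915 and 884 at day 3. Its replicate 1 at day 4 fell within the day 3 range, and the change of 0.31 ± 0.13 (limma adjusted p = 0.120) became 0.47 without that array (limma adjusted p = 0.00145). Kdm6a had 196, 423 and 399.9 at day 4 and 294, 357 and 365 at day 3, with replicate 1 of day 4 lowest of all (log2 change -0.07 ± 0.26). Kdm1a (LSD1), the demethylase of the CoREST complex, had 2897, 3156 and 3002 at day 4 and 2438, 2727 and 2689 at day 3. The groups did not overlap and the change of 0.21 ± 0.07 was just short of the threshold (limma adjusted p = 0.0604), and it passed with quantile normalization, array weights, the replicate block and without day 4 replicate 1 (limma adjusted p = 0.00957 to 0.0349). Kdm2b, which brings a PRC1 variant to CpG islands, was at 3405 ± 489 at day 4 and 3632 ± 313 at day 3.

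Of the 5 Kmt2 genes, Kmt2e and Kmt2c were higher at day 4. Kmt2e (Mll5) is an atypical member of the family known from blood and cell cycle studies, and had 424, 435 and 402 at day 4 and 309, 328 and 284 at day 3 (1.37-fold, log2 change 0.45 ± 0.10, limma adjusted p = 0.0107). A second Kmt2e probe set was called higher too, by 0.38 ± 0.11. The Kmt2e call was lost without day 3 replicate 3 (limma adjusted p = 0.0589) and with the mean over probe sets (0.31, limma adjusted p = 0.296). Kmt2c (Mll3), which methylates H3K4 at enhancers, had 250.2, 223 and 208 at day 4 and 189, 168 and 164 at day 3 (log2 change 0.39 ± 0.12, limma adjusted p = 0.0461). This call was close to the threshold and was lost in 11 of 16 alternatives, among them every fit that left out an array (limma adjusted p up to 0.157). Kmt2d (Mll4), the partner enzyme at enhancers, had 516, 490.1 and 557.5 at day 4 and 516, 539 and 482 at day 3, which overlapped fully. Kmt2a and Kmt2b, the enzymes of promoters and Hox genes, changed by -0.09 ± 0.18 and 0.18 ± 0.10.

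**Figure D3:**
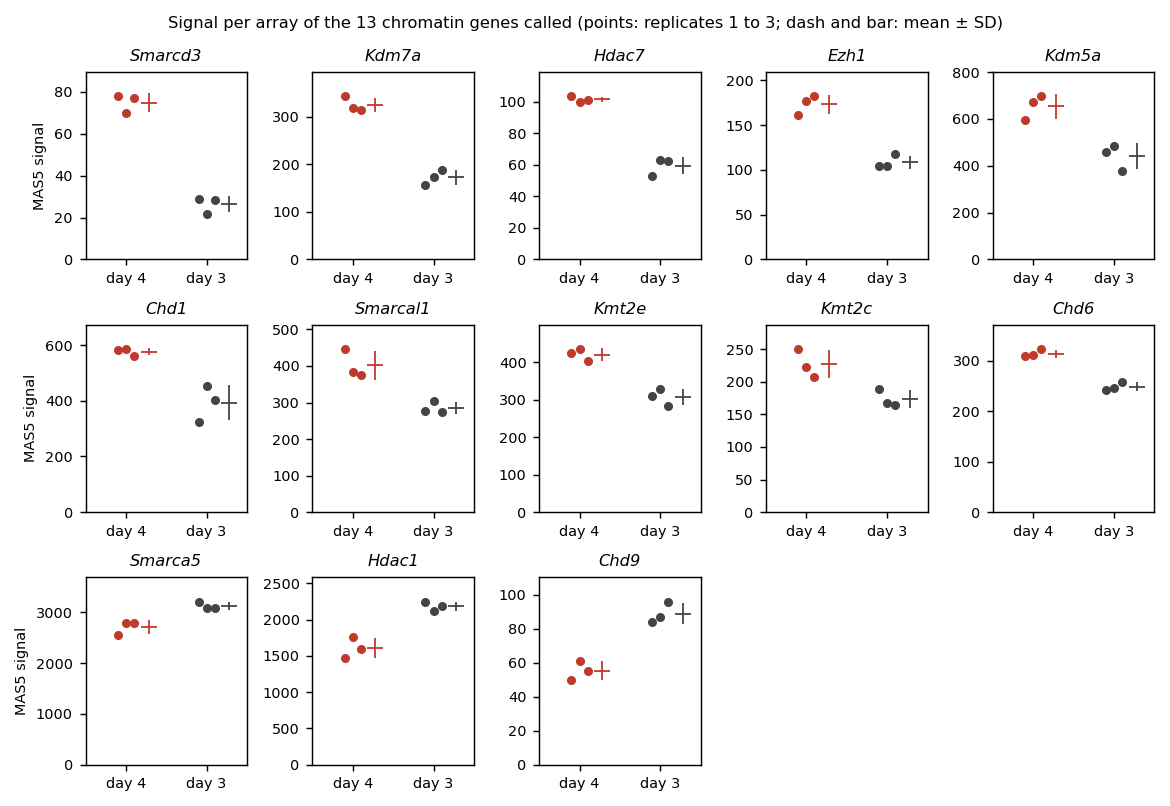
MAS5 signal on each array for the 13 chromatin genes called, day 4 in red to the left and day 3 in grey to the right (points: replicates 1 to 3; dash and bar: mean ± SD, n = 3). The days do not overlap in any of the 13 panels, with Smarcd3 at 69.8 to 77.8 on day 4 arrays and 21.9 to 29.1 on day 3 arrays. The genes were picked by their calls on these same arrays, so the lack of overlap is no separate result.

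Of the 9 helicase genes tested that were grouped by a Chd symbol, Chd1l included, 8 had days that did not overlap (88.9%, against 41.4% of all genes tested). Among them Chd3 was clear only narrowly, its lowest day 4 signal being 55.37 and its highest day 3 signal 55.29. Over the tested probe sets of these genes, which include those just counted, 12 of 20 did not overlap (60%). That share was not computed over all probe sets tested, so the 60% has nothing to be set against. Limma called 3 of the 9 genes (33.3%, against 22.2% of all genes tested): Chd1 and Chd6 higher and Chd9 lower. Chd1, which binds methylated H3K4 and in mouse ES cells is known to keep chromatin open, had 584, 586 and 562 at day 4 and 325, 452 and 405 at day 3 (1.48-fold, log2 change 0.56 ± 0.12, limma adjusted p = 0.0109). Its other 3 tested probe sets were not called, with changes of 0.28 ± 0.16, 0.19 ± 0.11 and -0.30 ± 0.28. Chd6 had 309, 311 and 323 at day 4 and 242, 247 and 258 at day 3 (log2 change 0.34 ± 0.10, limma adjusted p = 0.0325), and the call was lost in 7 of 16 alternatives, with an adjusted p up to 0.101 when an array was left out. Chd9, a relative of Chd6 to Chd8, had 50.1, 60.9 and 55.3 at day 4 and 84.1, 86.9 and 96.0 at day 3 (log2 change -0.69 ± 0.15, limma adjusted p = 0.0111). Without day 3 replicate 3 the Chd9 call was lost, narrowly (limma adjusted p = 0.0569).

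Neither Chd4 nor Chd3, ATPases of the NuRD complex, was called. Chd4, the main NuRD ATPase, had 618, 674 and 712 at day 4 and 734, 807 and 866 at day 3 (log2 change -0.26 ± 0.10, limma adjusted p = 0.0810), and its other tested probe sets changed by -0.16 ± 0.11 and 0.20 ± 0.25. Chd3, its alternative, had 72.3, 55.4 and 77.6 at day 4 and 43.1, 55.3 and 49.5 at day 3 (0.47 ± 0.19, limma adjusted p = 0.110). Chd7, mutated in human CHARGE syndrome and needed for neural crest, had 659, 509 and 493 at day 4 and 446, 431 and 403 at day 3 (0.36 ± 0.12, limma adjusted p = 0.0632), and passed with array weights and with the replicate block (limma adjusted p = 0.0227 and 0.0387). Chd2 and Chd8 were not called on their brightest probe sets (0.25 ± 0.10 and 0.25 ± 0.14), but a dimmer one of each was called higher, by 0.59 ± 0.15 and 0.43 ± 0.12. Chd1l, a helicase of DNA repair, had 366, 360.5 and 328 at day 4 and 429, 411 and 442.5 at day 3 (-0.28 ± 0.10, limma adjusted p = 0.0614) and passed without day 4 replicate 1 (-0.31, limma adjusted p = 0.0244).

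The ISWI ATPases, which space nucleosomes evenly, were lower in 1 of 2 cases. Smarca5 (SNF2H) had 2555, 2786 and 2793 at day 4 and 3207, 3075 and 3086 at day 3. The groups were clear of each other but the fall was small (log2 change -0.20 ± 0.06, limma adjusted p = 0.0451) and the call was lost in 10 of 16 alternatives. Smarca1 (SNF2L) had 525, 492 and 530.5 at day 4 and 548, 598 and 567 at day 3 (-0.15 ± 0.09, limma adjusted p = 0.265). Smarcal1, an annealing helicase of stalled replication forks, was higher at day 4, with 446, 385 and 374 against 276.5, 305 and 274 at day 3 (1.41-fold, log2 change 0.49 ± 0.11, limma adjusted p = 0.0110). A dimmer Smarcal1 probe set went the other way and was not called (-0.40 ± 0.17), and without day 3 replicate 3 the call was just lost (limma adjusted p = 0.0553). Smarcad1, a remodeler of heterochromatin, changed by -0.20 ± 0.09 (limma adjusted p = 0.144).

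Agreement between probe sets was limited. Tested singly, 16 of 151 member probe sets were higher and 3 lower at day 4, 12.6% in all against 17.7% of the 27026 probe sets tested, and 35 others lay under the filter. By direction, 9.96% of all probe sets tested were higher and 7.78% lower. Of the 42 chromatin genes with more than 1 tested probe set, 24 had all changes of 1 sign and 18 had both signs. That count was not made over all genes, so it shows nothing particular to the set. In the fit per probe set no chromatin gene was called in both directions. Another 5 genes (Smarce1, Chd2, Chd8, Kdm5c and Cbx5), not called per gene, were called here through a dimmer probe set. Of the 13 genes called per gene, Kmt2c was called here only through a dimmer probe set (0.59 ± 0.14, limma adjusted p = 0.0185). Its brightest did not pass (limma adjusted p = 0.0630), and none of the 4 probe sets of Smarca5 did. When the mean over all probe sets of a gene was used, dim ones included, 2 of the 13 calls were kept, Smarcd3 and Hdac1, the genes with a single probe set. The change of Kdm7a then became -0.027, that of Ezh1 0.016 and that of Smarcal1 0.024. Affymetrix probe sets of a gene can lie at different distances from its 3′ end, and their positions were not analysed here.

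**Figure D4:**
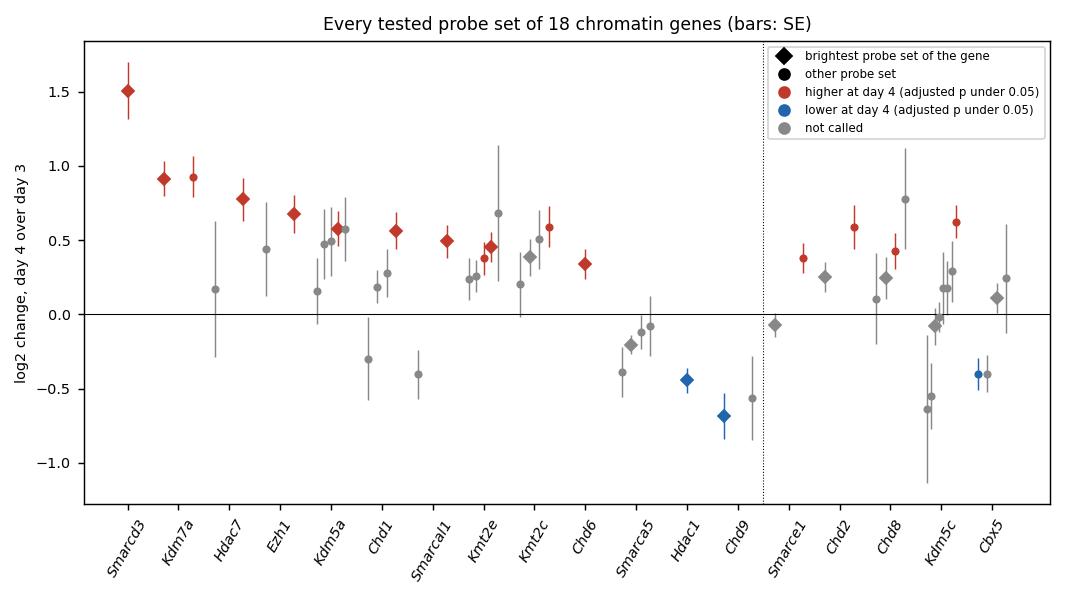
Log2 change, day 4 over day 3, of every tested probe set of 18 chromatin genes (diamonds: brightest probe set; circles: others; bars: SE; colour: limma call over all probe sets). The 13 genes left of the dotted line were called per gene, and the 5 to the right only through a dimmer probe set. The tested Kdm7a probe sets stand at 0.92 and 0.93, while those of Kdm5c run from -0.64 to 0.63.

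Related genes were then set side by side, in 9 pairs chosen after their values had been seen, so the differences are described and not tested. For each array the difference in log2 signal within the pair was taken and the day 3 mean set to 0. The Ezh1 to Ezh2 difference was 0.92, 0.62 and 0.53 on the day 4 arrays, against -0.05, -0.17 and 0.22 on the day 3 arrays. The Smarcd3 to Smarcd2 difference was 1.98, 1.50 and 1.71 on the day 4 arrays, against 0.21, -0.23 and 0.019 on the day 3 arrays, with a wide gap between the days. The Hdac1 to Hdac2 difference was -0.27, -0.37 and -0.47 at day 4 and 0.04, -0.06 and 0.01 at day 3. In all, the days did not overlap in 6 of the 9 pairs. Each pair holds a gene already called between the days, so this count is no separate result. They overlapped for Hdac7 and Hdac5, for Kdm5a and Kdm5b, and for Smarca5 and Smarca1, where the mean differences were 0.45, 0.23 and -0.06.

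**Figure D5:**
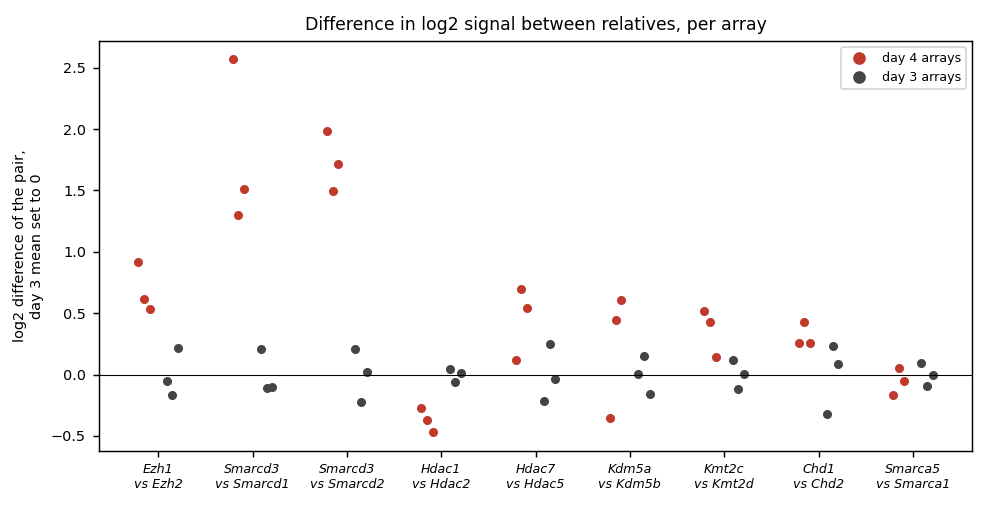
Difference in log2 signal within each of 9 pairs of related chromatin genes, 1 point per array, with the day 3 mean of each pair set to 0 (red: day 4 arrays; grey: day 3 arrays). The Smarcd3 pairs lie between 1.30 and 2.57 on the day 4 arrays, and Hdac1 against Hdac2 lies below 0 on all 3.

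Partner genes outside the gene rule were counted in the same fit. Of 114 tested partner genes, each counted once, 10 were higher and 5 lower at day 4 (13.2%, against 22.2% of all genes tested), with a median log2 change of 0.06 against -0.01 over all genes. The count was 20 higher and 10 lower without day 4 replicate 1, and 1 and 3 without day 3 replicate 3. Over all 12285 genes tested, calls moved the same way, from 2729 on all arrays to 3530 and 1582. PRC2 partners had 2 of 6 higher and 0 lower: Mtf2, a Polycomb-like protein that guides PRC2 to CpG islands, rose by 0.29 ± 0.07 and Aebp2, an accessory subunit, by 0.27 ± 0.08 (limma adjusted p = 0.0140 and 0.0302). PRC1 partners had 1 of 14 higher and 2 lower. Bmi1, a Pcgf subunit, had 434, 502 and 598 at day 4 and 346, 367 and 345 at day 3 (log2 change 0.52 ± 0.12), while the variant PRC1 subunit L3mbtl2 fell by 0.52 ± 0.12 and the Polyhomeotic gene Phc1 by 0.44 ± 0.13 (limma adjusted p = 0.0147, 0.0114 and 0.0317).

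Partners of the remodelers were called in single cases. Of 17 BAF and PBAF partners, 1 was higher, Arid2, the PBAF subunit (log2 change 0.38 ± 0.10, limma adjusted p = 0.0207). Of 9 NuRD partners, 1 was higher, the methyl-DNA binding Mbd2 (0.50 ± 0.12, limma adjusted p = 0.0165). Of 9 ISWI partners, 1 was lower, Baz1a, which pairs with Smarca5 in the ACF complex, with 610, 517 and 515 at day 4 and 827, 874 and 755.0 at day 3 (-0.58 ± 0.10, limma adjusted p = 0.00367). Of 9 other remodeling ATPases, Ep400 was higher (0.36 ± 0.09, limma adjusted p = 0.0223) and 0 were lower.

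Setd1b, an H3K4 methyltransferase, was the 1 of 11 COMPASS genes called and fell by 0.51 ± 0.11 (limma adjusted p = 0.00810). Of 10 genes of the SIN3, CoREST and NCoR complexes, Rcor3 was higher, at 94.1 ± 12.4 at day 4 and 50.3 ± 13.3 at day 3 (limma adjusted p = 0.0123). The coactivator Ncoa1 was the 1 of 12 acetyltransferase genes that was higher (0.70 ± 0.19, limma adjusted p = 0.0287). Of 13 other lysine methyltransferases, 2 were higher, the H3K9 enzyme Ehmt1 (0.48 ± 0.14) and the H4K20 enzyme Kmt5c (0.33 ± 0.11), with limma adjusted p = 0.0324 and 0.0489. Of 6 sirtuins, the NAD-dependent deacetylases, Sirt1 fell by 0.44 ± 0.10 (limma adjusted p = 0.0143).

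The 6 genes under the filter were Chdh, Chd5, Hdac8, Hdac9, Kdm4d and the Y-linked Kdm5d, and were not tested. Hdac9, a class IIa deacetylase, had 19.0, 16.7 and 19.4 at day 4 and 3.26, 12.7 and 16.2 at day 3, around the filter level of 13.5. Chdh was at 1.32 to 1.74 at day 4 and at 1.91 to 19.4 at day 3. The remaining genes of the set were tested and not called: Smarcc2, Hdac4, Hdac5, Hdac6, Hdac10, Hdac11, Kdm1b, Kdm2a, Kdm3a, Kdm3b, Kdm4a, Kdm4b, Kdm4c and Kdm8. Their log2 changes ran from -0.22 for Kdm1b to 0.56 for Kdm4c, whose signals of 68.9, 95.2 and 80.8 at day 4 overlapped those of 70.8, 60.9 and 38.6 at day 3.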

How the data were processed

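Total RNA of cells sorted for Msgn1-Venus was, per the labels' protocols, put through 2 rounds of amplification and labelling and hybridised to 1 Affymetrix array per sample. The deposited values are linear signal intensities made with MAS5, per the submitters' processing notes. For MAS5, the sources used here name neither a version nor a scaling target, and detection calls were not used. Trimmed means differed by 1.10% between arrays, so no scaling was added. The number of arrays, 3 per day, limits the precision.

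Probe sets were named from the platform annotation: 34945 had 1 symbol, 932 several and 9160 none, beside 64 controls. RefSeq (GRCm38.p6) supplied symbols and promoter windows. Log2 signals were fitted with limma 3.58.1 in R 4.3.3 (day as the only term, eBayes with trend, 2-sided, Benjamini-Hochberg over all genes or probe sets tested, threshold 0.05). Genes were represented by their brightest probe set and tested where their mean log2 signal reached the 40th percentile over the table (13.5 as a signal). The model was tested on simulated arrays.

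The members, gene lists and tests were chosen with earlier results of these data known. Named were the main members of each family, every gene called per gene or through 1 probe set, and up to 3 partners per list by smallest p, of which those called are given. Other members are mentioned so that each is accounted for. Several partner symbols had no probe set of their own and were not used here. Alternatives covered the offset, normalization, filter, choice of probe set, eBayes trend, array weights, replicate block and each array left out. Labels call the samples biological replicates and do not say what separates them.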

Additional observations from a re-analysis of the deposited data

How the results depend on the processing

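The number of chromatin genes called, 10 higher and 3 lower with all arrays, ranged from 6 to 12 higher and 1 to 4 lower when an array was left out, the lowest without day 3 replicate 3 and the highest without day 4 replicate 1. It was 16 and 5 with array weights and 3 and 2 with the mean over probe sets. Same-numbered replicates showed little shared deviation (correlations of 0.067, 0.011 and -0.00051 for numbers 1 to 3), and different numbers gave -0.065 to 0.070. With 3 arrays per day this cannot decide whether the numbers mark a pairing. The replicate block gave 12 higher and 2 lower, with the call of Smarca5 lost (limma adjusted p = 0.0502). Member probe sets, 16 higher and 3 lower, ranged from 6 to 19 and 1 to 4 when an array was left out, and were 10 and 1 without the trend, 26 and 8 with array weights, 13 and 5 with median centring, and 18 and 6 with the filter at the 60th percentile. Partner genes, 10 higher and 5 lower, ranged from 1 to 20 and 3 to 10 when an array was left out. They were 4 and 4 without the trend, 26 and 14 with array weights, 8 and 9 with median centring, 12 and 9 with the filter at the 60th percentile, 8 and 9 with the mean over probe sets, and 12 and 8 with the replicate block. Over all genes, the count of 2729 was 1796 with the mean over probe sets and 4312 with array weights, and 1582 to 3530 when an array was left out. The change of Kdm7a turned to -0.027 (limma adjusted p = 0.969) with the mean over probe sets, which takes in 3 probe sets under the filter. Of the 13 calls, 6 were lost in at least 1 fit that left out an array (Chd6, Chd9, Kmt2c, Kmt2e, Smarca5 and Smarcal1), and 12 uncalled members gained a call under some alternative. Why the counts move with array weights and day 3 replicate 3 was not tested. Signals near the filter level limit what can be said of Smarca2, Cbx3 and the genes left untested.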
